A study of Mus musculus with 4 samples.

Results

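A set of 9 genes of the transforming growth factor beta (TGF-beta) system were followed in single-cell RNA of mouse colonic organoids: the ligands Tgfb1, Tgfb2 and Tgfb3, the latent ligand binder Ltbp1, the receptors Tgfbr1, Tgfbr2 and Tgfbr3, the pathway inhibitor Smad7 and the induced matrix protein Tgfbi. They were chosen by name, with earlier results of these data known, as the 9 of 30360 rows of the deposited gene table that carried these symbols. All 9 were found. Organoids are small epithelial cultures grown in a gel, here from the distal colon of 16-week-old mice. The mice were wildtype or Tnfr2-/-, the latter without TNF receptor 2, the product of Tnfrsf1b. Some cultures received 20 ng/ml of tumor necrosis factor (TNF), an inflammatory cytokine, between day 1 and day 6 after passage 5. The remaining cultures were untreated by title and received vehicle by another label. Dead cells were removed on day 7 before 3' libraries were made on the 10x Chromium platform. Each of the 4 groups was 1 culture and 1 library. There were therefore no replicates, no p-values are given, and the intervals below hold the counting error alone and say nothing of how cultures or mice vary. The culture methods describe several mice of both sexes per genotype in each experiment, younger than the labels give, and do not say which mice were behind these libraries.

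TGF-beta ligands are secreted in a latent form, which latent TGF-beta binding proteins such as Ltbp1 tether to the extracellular matrix until integrins or proteases release it. The free ligand binds the type II receptor Tgfbr2, which recruits and phosphorylates the type I receptor Tgfbr1, and the co-receptor Tgfbr3 (betaglycan) helps to present ligand, Tgfb2 above all. Signal then passes through Smad2, Smad3 and Smad4 to the nucleus. Smad7 is made in response and blocks the type I receptor, and Tgfbi is a secreted matrix protein named for its induction by the ligand. In the colon the pathway restrains epithelial growth and drives matrix production by fibroblasts.

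The deposited annotation put 6120 of 6155 cells in 7 epithelial and 4 mesenchymal classes. In the order untreated wildtype, TNF-treated wildtype, untreated Tnfr2-/- and TNF-treated Tnfr2-/-, which is kept throughout, there were 1128, 1163, 1023 and 858 epithelial cells and 1430, 306, 90 and 122 mesenchymal cells. Each class sum added up the unique molecular identifiers (UMIs), which count captured RNA molecules, of its cells, and a gene's part of that sum is given as CPM, the usual scaled count. The epithelial sums held between 39776200 and 50648198 UMIs and the mesenchymal sums between 2177022 and 34799420, so values from the Tnfr2-/- mesenchyme are the least precise. The fibroblast markers summed to between 9233 and 15790 CPM in mesenchyme and at most 23.2 CPM in the pooled epithelium. Some single epithelial classes held more, with 922 CPM in the class Secretory-Reg4-Ang4 of TNF-treated wildtype and 252 CPM in the class Enteroendocrine of untreated wildtype. In turn, 8 epithelial markers summed to at least 11900 CPM in epithelium and between 144 and 867 CPM in mesenchyme, the highest in TNF-treated Tnfr2-/-. Mesenchyme held at most 26.7 CPM of endothelial, 7.07 CPM of smooth muscle and 4.20 CPM of leukocyte markers. The female-specific transcript Xist gave 558 and 683 CPM in wildtype epithelium and no more than 0.459 CPM in any Tnfr2-/- sum, and 4 Y-linked genes summed to 143 and 135 CPM in the Tnfr2-/- mesenchyme and 0.0862 and 0.476 CPM in the wildtype mesenchyme. Tnfr2-/- epithelium read neither, with 0.158 and 0.101 CPM of Xist and 0.0790 and 0.151 CPM of the Y-linked genes, and wildtype epithelium read 5.32 and 29.4 CPM of the Y-linked genes beside its Xist. Genotype and sex therefore cannot be told apart. In both genotypes the epithelium and mesenchyme of a culture differed in Y-linked reads, as did the untreated and the TNF-treated wildtype epithelium. Whether these cells came from the same animals was not tested. Differences between compartments, and TNF differences in wildtype, may therefore hold a difference between animals. The 3' reads of Tnfrsf1b itself were at 4.17, 12.1, 1.82 and 6.89 CPM in epithelium. The sources used here do not give the deleted part of the gene, so these reads did not check the genotype.

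The promoters of Tgfbr2 and Ltbp1 are shown because these were the 2 members that passed a 2-fold difference with TNF, in opposite directions, in the mesenchyme of both genotypes. That choice rests on the mesenchymal classes pooled. Within the class Mesenchyme-Ptges alone, described below, no member passed it in the same direction in both genotypes. Each sequence is the 250 bases before the RefSeq transcript start in GRCm38.p6, read along the transcript, for Tgfbr2 at chr9:116175364-116175613 on the minus strand and for Ltbp1 at chr17:75005279-75005528 on the plus strand. Capitals mark CCAAT boxes on either strand (CCAAT or ATTGG) and, in Ltbp1, 1 cAMP response element (TGACGTCA), 2 motifs that were searched after the sequences had been seen.
Tgfbr2: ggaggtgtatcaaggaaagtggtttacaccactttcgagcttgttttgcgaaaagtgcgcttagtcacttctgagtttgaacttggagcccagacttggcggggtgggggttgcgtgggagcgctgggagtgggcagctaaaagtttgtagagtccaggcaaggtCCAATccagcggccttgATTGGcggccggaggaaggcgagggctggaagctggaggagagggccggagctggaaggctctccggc
Ltbp1: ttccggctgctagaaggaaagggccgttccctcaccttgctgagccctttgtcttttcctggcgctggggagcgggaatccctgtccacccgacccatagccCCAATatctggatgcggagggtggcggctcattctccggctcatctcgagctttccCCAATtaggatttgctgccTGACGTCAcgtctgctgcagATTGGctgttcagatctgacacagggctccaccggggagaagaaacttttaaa
The Tgfbr2 window held 2 CCAAT boxes, at 85 to 81 and 68 to 64 bases before the start. The Ltbp1 window held 3, and its cAMP response element stood 73 to 66 bases before the start. Among 32851 mouse promoter windows, 33.8% held a CCAAT box and 1.55% that element. Neither window, nor any of the 8 windows of the 6 members for which RefSeq promoters were given, matched the NF-kB motif (GGG, 2 free bases, TTTCC; 1.41% of all windows), the AP-1 motif TGANTCA (6.75%) or the Smad palindrome GTCTAGAC (0.167%) on either strand, which says only that these letters were not in these windows. GC content was 58.4% for Tgfbr2 and 56.8% for Ltbp1, against a median of 52.4% over all windows.

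Most of these genes were read mainly in the mesenchyme. A gene was called different where log2(CPM + 1) differed by at least 1 (2-fold) and at least 1 side reached 10 CPM, a rule of size and not a test, and the words rose and fell below are used only for such calls. By this rule Tgfb1, Tgfbr1, Tgfbr3 and Ltbp1 were higher in mesenchyme than in epithelium in all 4 libraries, 4 of the 6 members that reached the minimum each time, where 14.5% of all genes tested were called in that direction. In single libraries 6, 6, 6 and 5 members were higher in mesenchyme, against 24.9%, 21%, 22.5% and 21% of all genes, and none was lower. The classes were clustered by the authors from these same cells, so this is a description of the annotation. At equal depth the order was the same for most of them: with every cell thinned at random to 5000 UMIs, and 405 shallower cells left out, the share of cells with a UMI was above the epithelial share with no overlap of the 95% intervals in all 4 libraries for 6 of 9 members, namely Tgfb1, Tgfb2, Tgfbr1, Tgfbr3, Ltbp1 and Smad7. Of the cells left out, 298 were of TNF-treated wildtype. Its thinned epithelial shares cover 873 of 1163 cells, with 2 of the 246 cells of the class Secretory-Reg4-Ang4. Unthinned shares, given below, are over all cells.

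**Figure D1:**
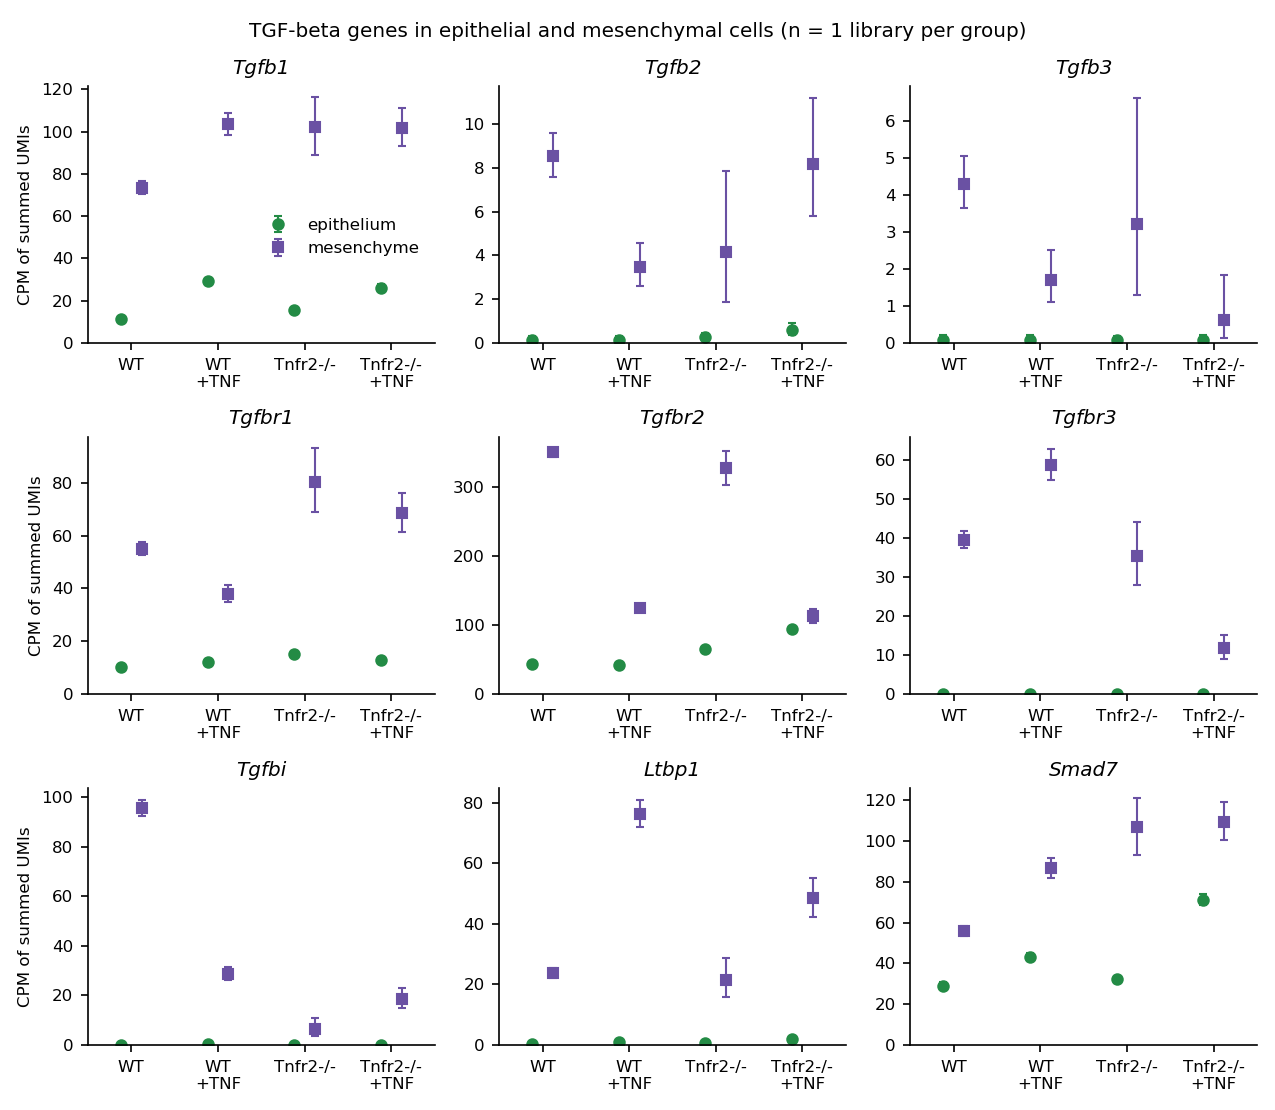
Level of each of the 9 genes in CPM of summed UMIs (vertical axis, starting at 0 and scaled per panel) in the 4 libraries (horizontal axis), for all epithelial cells (green circles) and all mesenchymal cells (purple squares), with bars for exact Poisson 95% intervals and n = 1 library per group. Mesenchymal points lie above the epithelial ones in every panel, and mesenchymal Tgfbr2 stands at 351 and 328 CPM in the untreated libraries and at 124 and 113 CPM with TNF.

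Tgfb1 was the ligand found in both compartments (Ensembl ENSMUSG00000002603, chr7:25687002-25705077, plus strand, 7 exons in GENCODE M21 on GRCm38, which gives all positions and exon counts here). In epithelium it was at 11.5 CPM (95% interval 10.6 to 12.5) in untreated wildtype, 29.2 (27.6 to 30.9) with TNF, 15.6 (14.5 to 16.7) in untreated Tnfr2-/- and 26.2 (24.6 to 27.8) with TNF. Both treated libraries were thus above both untreated ones, with no overlap of the intervals. The rise with TNF was 2.55-fold in wildtype (1.28 on the log2 scale), the only member called higher in that epithelium, where 2.69% of 7949 genes were called higher and 1.02% lower. In Tnfr2-/- the same difference was 1.68-fold (0.71), short of a call. At equal depth 4.24%, 11.1%, 6.67% and 12.8% of epithelial cells held a Tgfb1 UMI, against 31.0%, 42.7%, 37.4% and 49.2% unthinned.

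Within the epithelium, Tgfb1 differed by class. Progenitor.2 carried more of it than Progenitor.1, the class with most epithelial cells of the untreated libraries, in every library: 31.6 against 10.4 CPM in untreated wildtype, 33.5 against 21.7 CPM with TNF, 31.2 against 11.0 CPM in untreated Tnfr2-/- and 27.2 against 17.6 CPM with TNF. These were ratios of 3.03, 1.54, 2.83 and 1.55, with no overlap of the intervals. With TNF the level differed by 0.99 on the log2 scale in wildtype Progenitor.1 and by 0.08 in wildtype Progenitor.2, and by 0.63 and -0.19 in Tnfr2-/-. Across the pooled epithelium the cell numbers of these classes also moved: Progenitor.1 had 546, 335, 647 and 95 cells and Progenitor.2 had 62, 273, 233 and 716. The secretory class Secretory-Reg4-Spdef-Lyz1 held 21.1 CPM (16.1 to 27.2) in untreated wildtype and 45.7 CPM (40.6 to 51.2) with TNF, a difference of 1.08 on the log2 scale, and 27.2 CPM in untreated Tnfr2-/-. Enteroendocrine cells, the hormone-secreting lineage, had 12.2 CPM (5.27 to 24) in untreated and 31.0 CPM (20.5 to 45.2) in TNF-treated wildtype, and these intervals overlapped. The highest class sum of TNF-treated wildtype epithelium was Secretory-Reg4-Ang4, at 53.0 CPM (34.9 to 77.1, 27 UMIs). That class also held the fibroblast marker RNA given above.

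In mesenchyme Tgfb1 was at 73.5 CPM (70.7 to 76.4), 104 CPM (98.4 to 109), 102 CPM (89 to 116) and 102 CPM (93 to 111). Untreated wildtype was the lowest, and the other three libraries overlapped. No difference reached a call, with 0.49 and -0.00 on the log2 scale for TNF in wildtype and Tnfr2-/-. Within Mesenchyme-Ptges, the class that held nearly all treated mesenchymal cells, these differences were 0.24 and -0.35, with overlapping intervals. The level was 6.40, 3.54, 6.55 and 3.89 times that of the epithelium of the same library. In the classes of untreated wildtype it was lowest in Mesenchyme-Ifitm1 (63.0 CPM, 59.7 to 66.5), while Mesenchyme-Ptges, Mesenchyme-generic and Mesenchyme-proliferative stood at 87.6, 89.2 and 92.7 CPM with overlapping intervals.

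Tgfb2 and Tgfb3 were scarce. Tgfb2 (ENSMUSG00000039239, chr1:186622792-186705989, minus strand, 7 exons) gave 8, 6, 13 and 24 UMIs in the 4 epithelia. In mesenchyme it was at 8.53 CPM (7.59 to 9.56), 3.47 CPM (2.58 to 4.56), 4.13 CPM (1.89 to 7.85) and 8.17 CPM (5.81 to 11.2), below the 10 CPM needed for a call. The untreated wildtype and the TNF-treated Tnfr2-/- mesenchyme overlapped, and the interval of TNF-treated wildtype lay below both. Among classes only Mesenchyme-generic (11.0 CPM, 99 UMIs) and Mesenchyme-Ptges (14.6 CPM, 5 UMIs) of untreated wildtype passed 10 CPM. Tgfb3 (ENSMUSG00000021253, chr12:86056745-86079041, minus strand, 7 exons) gave 3 or 4 UMIs in each epithelium and 150, 25, 7 and 3 UMIs in mesenchyme, at most 4.31 CPM, and reached 10 CPM in no class sum of 20 or more cells.

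Ltbp1, which tethers the latent ligand to matrix, rose with TNF in the mesenchyme of both genotypes when its classes were pooled (ENSMUSG00000001870, chr17:75005568-75392512, plus strand, 34 exons). Within Mesenchyme-Ptges of wildtype the difference was -0.04, as described below. It was at 23.7 CPM (22.1 to 25.4) in untreated wildtype, 76.2 CPM (71.8 to 80.8) with TNF, 21.6 CPM (15.9 to 28.7) in untreated Tnfr2-/- and 48.4 CPM (42.4 to 55.1) with TNF. The treated libraries were apart from the untreated ones, whose intervals overlapped each other. The rise was 3.21-fold in wildtype (1.64) and 2.24-fold in Tnfr2-/- (1.13), and Ltbp1 was the only member called higher in both, where 2.72% of 8094 genes were. In wildtype mesenchyme alone it was 1 member called higher, against 5.86% of all genes, and in Tnfr2-/- mesenchyme Ltbp1 and Tgfbi were 2, against 6.18%. At equal depth 11.1%, 25.8%, 4.65% and 18.3% of mesenchymal cells held an Ltbp1 UMI, against 33.6%, 76.8%, 25.6% and 65.6% unthinned.

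The class makeup of the mesenchyme moved with TNF. Of the mesenchymal cells with TNF, 304 of 306 in wildtype and 122 of 122 in Tnfr2-/- were of Mesenchyme-Ptges, named for prostaglandin E synthase. The untreated libraries had 34 and 37 such cells, next to 892 and 1 of Mesenchyme-Ifitm1, 393 and 51 of Mesenchyme-generic and 111 and 1 of Mesenchyme-proliferative. The 34 untreated wildtype cells had a median of 5755 UMIs, against 22642.5 over that mesenchyme. TNF differences of the members in mesenchyme are therefore also given within Mesenchyme-Ptges, and differences in state and in class cannot be told apart in the pooled values. Within that class Tgfb2, Tgfbr2 and Tgfbi were called lower with TNF in wildtype, Tgfb2 on 5 UMIs without TNF (14.6 to 3.49 CPM), against 12.1% of all genes (14.7% higher). With TNF in Tnfr2-/-, Ltbp1 was called higher against 6.26% and Tgfbr3 lower against 4.58%. Between genotypes, Tgfb2, Tgfbr3, Tgfbi and Ltbp1 were called lower in untreated Tnfr2-/-, Tgfb2 and Ltbp1 on 3 UMIs each, against 15.5% (11.8% higher), and Tgfbr3 with TNF against 8.97% (6.52% higher). No member was called with TNF in both genotypes within the class (2.04% of genes higher, 1.46% lower), and Tgfbr3 was called lower in Tnfr2-/- in both treatments (2.24%, with 2.78% higher).

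Within Mesenchyme-Ptges, Ltbp1 was at 78.8 CPM (51.9 to 115, 27 UMIs), 76.6 CPM (72.1 to 81.2), 3.60 CPM (0.743 to 10.5, 3 UMIs) and 48.4 CPM (42.4 to 55.1). In wildtype the class thus had nearly the same level without TNF as with it (-0.04 on the log2 scale). The untreated Tnfr2-/- cells stood far below, on 3 UMIs, and the treated Tnfr2-/- cells were also below treated wildtype (-0.65), with no overlap of the intervals and no call. The other classes of untreated wildtype were lower, with 29.2 CPM in Mesenchyme-Ifitm1, 23.2 CPM in Mesenchyme-proliferative and 8.92 CPM (7.07 to 11.1) in Mesenchyme-generic. Untreated Mesenchyme-generic of Tnfr2-/- held 30.5 CPM (21.8 to 41.6), 3.42-fold above that of wildtype. Between these genotypes Smad7 was also past 2-fold higher in that class. Tgfbr3, Tgfbi and Tgfb2 were past 2-fold lower, Tgfb2 by -1.11 on 6 UMIs in Tnfr2-/- with overlapping intervals. The share of all genes called was not counted within Mesenchyme-generic, so these differences have no background beside them.

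Ltbp1 in epithelium was low, at 0.437, 1.06, 0.652 and 2.09 CPM, and the mesenchyme held 54.3, 71.6, 33.1 and 23.2 times as much. In 3 libraries the epithelial UMIs came mostly from Progenitor.2, which had 2, 37, 32 and 82 UMIs against 2, 5, 1 and 1 in Progenitor.1. In untreated wildtype 18 UMIs lay in the Absorptive class instead, at 1.12 CPM (0.664 to 1.77). The corresponding levels were 1.19, 2.92, 3.23 and 2.43 CPM in Progenitor.2 and 0.0724, 0.274, 0.0272 and 0.195 CPM in Progenitor.1, with no overlap of the intervals in 3 of the 4 libraries, untreated wildtype being the exception. The epithelial level was 1.84%, 1.40%, 3.02% and 4.31% of the mesenchymal one, while the fibroblast markers had medians of 0.0852%, 0.290%, 0.0262% and 0.0767%, which give the scale of fibroblast RNA read in epithelial cells.

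**Figure D2:**
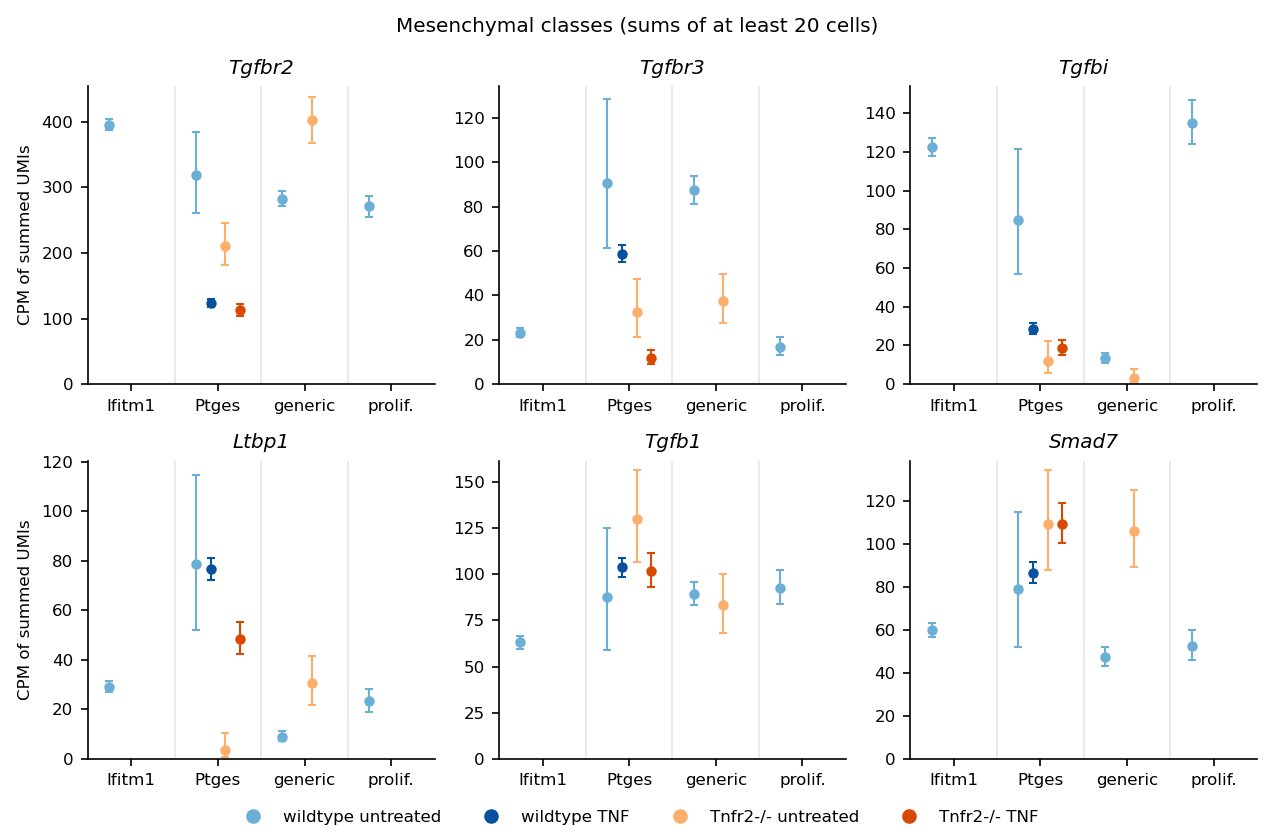
Levels of 6 genes in CPM of summed UMIs (vertical axis, starting at 0 and scaled per panel) in the mesenchymal classes Ifitm1, Ptges, generic and proliferative (horizontal axis), shown where a class had at least 20 cells in a library. Colors give the 4 libraries (light and dark blue for wildtype untreated and TNF, light and dark orange for Tnfr2-/- untreated and TNF) and bars are exact Poisson 95% intervals. In Mesenchyme-Ptges, Tgfbr2 is lower in both treated libraries (124 and 113 CPM) than in both untreated ones (318 and 211 CPM).

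The type II receptor Tgfbr2 fell with TNF in the mesenchyme of both genotypes (ENSMUSG00000032440, chr9:116084293-116175360, minus strand, 8 exons). It was at 351 CPM (345 to 357) in untreated wildtype, 124 CPM (119 to 130) with TNF, 328 CPM (304 to 352) in untreated Tnfr2-/- and 113 CPM (103 to 123) with TNF. The untreated pair and the treated pair each overlapped, and the pairs were far apart. TNF-treated mesenchyme was 2.82-fold lower in wildtype (-1.49) and 2.90-fold lower in Tnfr2-/- (-1.53), and Tgfbr2 was the only member called lower in both, where 3.31% of all genes were. In single genotypes, Tgfbr2 and Tgfbi were called lower in wildtype against 7.45% of all genes, and Tgfbr2 and Tgfbr3 in Tnfr2-/- against 7.24%.

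At equal depth, 80.2% (78 to 82.2), 45% (39.2 to 50.8), 74.4% (63.9 to 83.2) and 34.2% (25.8 to 43.4) of mesenchymal cells held a Tgfbr2 UMI. Unthinned, the shares were between 91.0% and 99.2%, so nearly all mesenchymal cells of each library held some and the libraries differed in amount per cell. Within Mesenchyme-Ptges, Tgfbr2 was at 318 CPM (261 to 384), 124 CPM (118 to 129), 211 CPM (181 to 245) and 113 CPM (103 to 123). The class was 2.58-fold lower with TNF in wildtype, a call, and 1.87-fold lower in Tnfr2-/- (-0.90), which was not. The other classes of untreated wildtype held 396 CPM in Mesenchyme-Ifitm1, 283 CPM in Mesenchyme-generic and 271 CPM in Mesenchyme-proliferative, and untreated Mesenchyme-generic of Tnfr2-/- held 402 CPM, so every untreated class sum was above the treated ones.

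In epithelium Tgfbr2 was higher in Tnfr2-/-. It was at 43.5 CPM (41.7 to 45.4), 42.6 CPM (40.6 to 44.6), 65.3 CPM (63.1 to 67.6) and 94.1 CPM (91.1 to 97.1). The wildtype libraries overlapped, and both Tnfr2-/- libraries were higher. The TNF difference was -0.03 in wildtype and 0.52 in Tnfr2-/-, no call. With TNF the Tnfr2-/- epithelium was 2.21-fold above wildtype (1.12), the only member called there, where 4.75% of genes were called higher and 6.96% lower. Without TNF the difference was 0.58, and no member was called between the untreated epithelia, where 2.78% of genes were called higher and 3.48% lower.

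By class, Progenitor.2 had more Tgfbr2 than Progenitor.1 in every library, with 79.8, 60.7, 114 and 103 CPM against 48.7, 34.9, 55.1 and 49.3 CPM. The ratios were 1.64, 1.74, 2.07 and 2.08 with no overlap. Within a class, Tnfr2-/- minus wildtype was 0.17 and 0.49 in Progenitor.1 and 0.51 and 0.75 in Progenitor.2, without and with TNF, all below a call. The TNF differences were -0.47 and -0.16 in Progenitor.1 and -0.39 and -0.15 in Progenitor.2. Enteroendocrine cells had the least, with 4.57 CPM (3 UMIs), 5.75 CPM (5 UMIs) and 12.3 CPM (6 UMIs) in the 3 libraries with at least 20 such cells, and their intervals lay below those of Progenitor.1 each time. As mesenchyme fell and epithelium did not, the mesenchymal level was 8.07, 2.92, 5.01 and 1.20 times the epithelial one, and the last of these was no call.

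The type I receptor Tgfbr1 was steadier (ENSMUSG00000007613, chr4:47353222-47414931, plus strand, 9 exons). In epithelium it was at 10.1 CPM (9.25 to 11), 12.3 CPM (11.2 to 13.4), 15.1 CPM (14.1 to 16.2) and 12.8 CPM (11.7 to 14), and in mesenchyme at 55.1 CPM (52.6 to 57.6), 37.9 CPM (34.9 to 41.2), 80.4 CPM (68.9 to 93.2) and 68.5 CPM (61.3 to 76.4). No TNF or genotype difference reached a call. The nearest were Tnfr2-/- minus wildtype in TNF-treated mesenchyme (0.84) and in untreated Mesenchyme-generic (49.3 CPM in wildtype and 97.7 CPM in Tnfr2-/-, 0.97). Within Mesenchyme-Ptges Tgfbr1 was at 58.4, 37.9, 54.0 and 68.5 CPM, with TNF differences of -0.61 and 0.34 and overlapping intervals, and the untreated genotypes there differed by -0.11, against 0.54 in the pooled mesenchyme. Enteroendocrine cells, lowest for Tgfbr2, were at the upper end for Tgfbr1, with 29.0 CPM (17.4 to 45.2), 37.9 CPM (26.1 to 53.3) and 24.6 CPM (12.7 to 43) against 11.2, 13.9 and 15.6 CPM in Progenitor.1 of the same libraries. The intervals were apart in both wildtype libraries and overlapped in TNF-treated Tnfr2-/-.

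The co-receptor Tgfbr3 was a mesenchymal gene (ENSMUSG00000029287, chr5:107106570-107289629, minus strand, 17 exons). The 4 epithelia gave 4, 2, 1 and 0 UMIs in all. These were 0.201%, 0.0822%, 0.0558% and 0% of the mesenchymal level, no more than the highest fibroblast marker of each library, so they are read as background. In mesenchyme Tgfbr3 was at 39.6 CPM (37.5 to 41.7), 58.8 CPM (55 to 62.9), 35.4 CPM (27.9 to 44.2) and 11.7 CPM (8.87 to 15.2). The treated libraries were thus the highest and the lowest, and the untreated ones overlapped. TNF differed by 0.56 in wildtype, no call, and by -1.51 in Tnfr2-/-, a 3.01-fold fall, and with TNF Tnfr2-/- was 5.01-fold below wildtype (-2.23). Tgfbr3 was the only member called between the TNF-treated mesenchymes, where 8.9% of genes were called lower and 6.48% higher. The test of a difference between the genotypes in their response could not be made with 1 library each.

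Within Mesenchyme-Ptges, Tgfbr3 was at 90.5 CPM (61.5 to 128, 31 UMIs), 58.8 CPM (55 to 62.9), 32.4 CPM (21.4 to 47.2) and 11.7 CPM (8.87 to 15.2). Here the TNF difference was -0.61 on the log2 scale in wildtype, with overlapping intervals, and -1.39 in Tnfr2-/-, a call. Tnfr2-/- was below wildtype both without TNF (-1.45) and with it (-2.23), both calls. Within untreated wildtype, Mesenchyme-generic held 87.4 CPM (81.4 to 93.7) and Mesenchyme-Ifitm1 23.1 CPM (21.2 to 25.3), a ratio of 3.77, and Mesenchyme-proliferative 16.7 CPM (13 to 21.1). Untreated Mesenchyme-generic of Tnfr2-/- had 37.4 CPM (27.7 to 49.4), a difference of -1.20 on the log2 scale from wildtype. No share of all genes was counted for that class.

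Smad7, the inhibitor made in answer to the pathway, was in both compartments and in nearly every class (ENSMUSG00000025880, chr18:75367529-75395935, plus strand, 4 exons). In epithelium it was at 29.1 CPM (27.7 to 30.7), 43.0 CPM (41 to 45), 32.1 CPM (30.6 to 33.7) and 71.1 CPM (68.6 to 73.8), so that both treated libraries were above both untreated ones. The rise was 2.22-fold in Tnfr2-/- (1.12), the only member called in that epithelium, where 5.05% of genes were called higher and 8.46% lower. In wildtype the difference was 0.55, no call. Thus no member was called with TNF in the epithelium of both genotypes, where 0.98% of genes were higher and 0.0654% lower. At equal depth 14.7%, 18.1%, 14.2% and 28.1% of epithelial cells held a Smad7 UMI, against 57.0%, 49.5%, 63.4% and 74.7% unthinned.

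Progenitor.2 again held more Smad7 than Progenitor.1, at 52.4, 77.5, 58.5 and 79.5 CPM against 21.6, 28.6, 25.5 and 25.9 CPM. The ratios were 2.43, 2.71, 2.29 and 3.07 with no overlap. The Absorptive class of untreated wildtype held 44.5 CPM (41.3 to 47.9, 714 UMIs), which overlapped Progenitor.2. It had 319 cells there and 19 in TNF-treated wildtype. Over the 3 progenitor classes pooled, the TNF difference was 1.01 in wildtype and 1.14 in Tnfr2-/-. Within Progenitor.1 the TNF difference was 0.39 in wildtype and 0.02 in Tnfr2-/-, and within Progenitor.2 it was 0.56 and 0.44. No member was called within either class. In Progenitor.1 the shares of all genes called higher and lower were 1.99% and 0.903% for TNF in wildtype, 1.13% and 1.1% for TNF in Tnfr2-/-, 1.5% and 1.4% for genotype without TNF and 1.42% and 2.37% for genotype with it. In Progenitor.2 these shares were 4.77% and 3.44%, 0.924% and 1.24%, 5.48% and 3.58%, and 3.26% and 4.74%. In mesenchyme Smad7 was at 55.9 CPM (53.4 to 58.4), 86.5 CPM (81.8 to 91.4), 107 CPM (93.3 to 121) and 109 CPM (100 to 119), with untreated wildtype the lowest and no TNF or genotype call. Within Mesenchyme-Ptges the TNF differences were 0.14 and 0.00, with overlapping intervals. Untreated Mesenchyme-generic differed by 1.15 on the log2 scale, from 47.4 CPM (43 to 52.1) in wildtype to 106 CPM (89.2 to 125) in Tnfr2-/-. No share of all genes was counted for that class either.

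**Figure D3:**
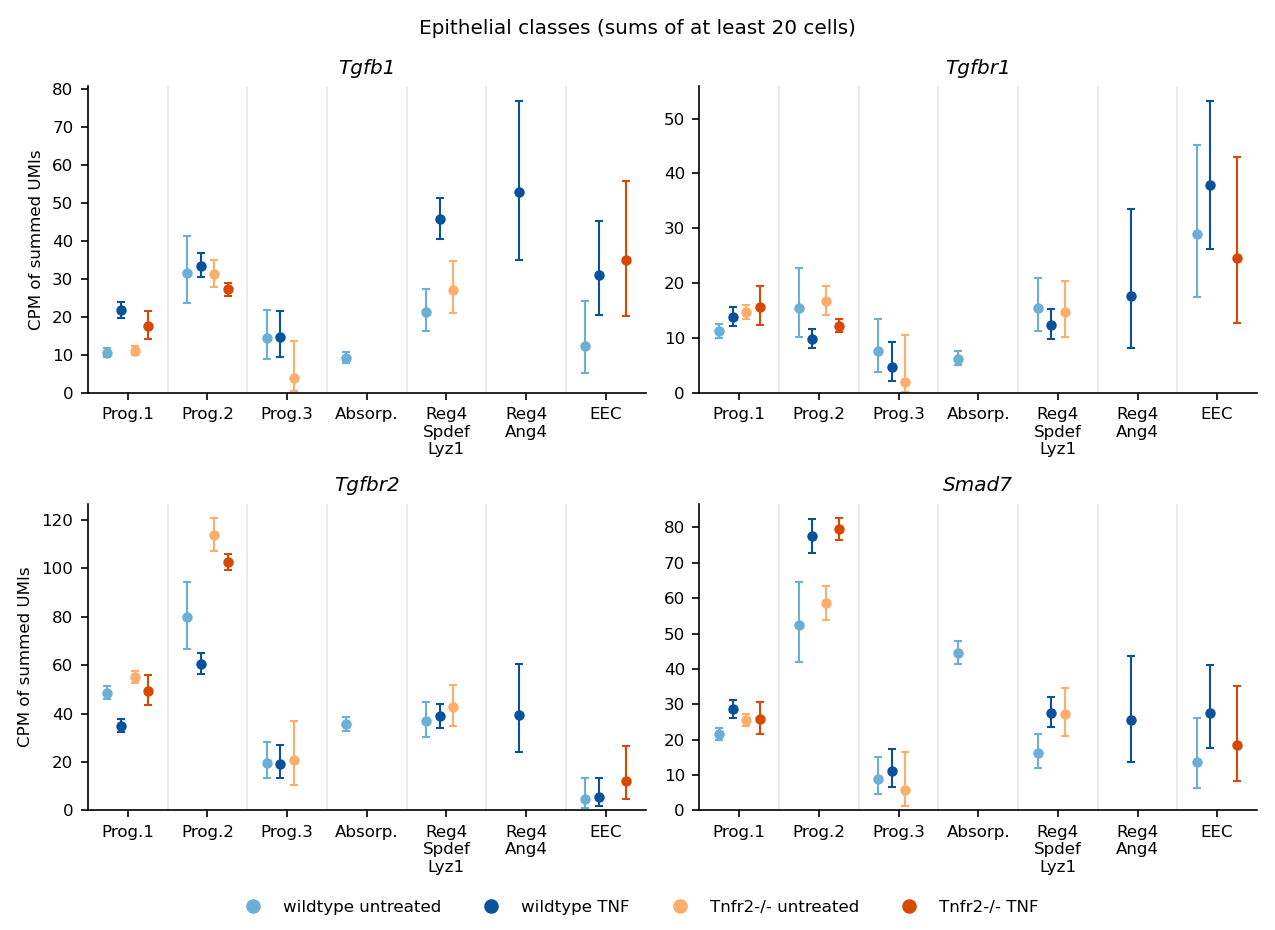
Levels of Tgfb1, Tgfbr1, Tgfbr2 and Smad7 in CPM of summed UMIs (vertical axis, starting at 0 and scaled per panel) in the 7 epithelial classes (horizontal axis, EEC for Enteroendocrine), shown where a class had at least 20 cells in a library, with library colors light and dark blue for wildtype untreated and TNF and light and dark orange for Tnfr2-/- untreated and TNF. Bars are exact Poisson 95% intervals, and Progenitor.2 lies above Progenitor.1 for Tgfb1, Tgfbr2 and Smad7 in every library.

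Tgfbi, the matrix protein induced by TGF-beta, was the member that varied most in mesenchyme (ENSMUSG00000035493, chr13:56609523-56639562, plus strand, 17 exons). It was at 95.4 CPM (92.2 to 98.7) in untreated wildtype, 28.8 CPM (26.1 to 31.6) with TNF, 6.43 CPM (3.52 to 10.8) in untreated Tnfr2-/- and 18.7 CPM (15 to 23) with TNF. No pair of libraries overlapped. With TNF it fell 3.32-fold in wildtype (-1.70) and rose 2.90-fold in Tnfr2-/- (1.40), and without TNF it was 14.8-fold lower in Tnfr2-/- than in wildtype (-3.70). It was the only member called between the untreated mesenchymes, where 4.65% of genes were called lower and 3.73% higher. With TNF the genotypes differed by -0.60, no call, so no member was called between genotypes in both treatments, in mesenchyme (1.56% of genes higher, 1.76% lower) or in epithelium (1.39% and 1.48%).

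The Tgfbi values of the Tnfr2-/- mesenchyme rested on few cells. Its UMIs numbered 3319, 423, 14 and 89, in 754 of 1430, 83 of 306, 10 of 90 and 18 of 122 cells. The 10 cells with most held 6.69%, 40.9%, 100% and 89.9% of them, and the highest single cell held 26, 35, 3 and 23 UMIs. At equal depth 28.8% (26.4 to 31.2), 12.4%, 1.16% and 8.33% of mesenchymal cells held a Tgfbi UMI, against 52.7%, 27.1%, 11.1% and 14.8% unthinned. In the classes of untreated wildtype, Tgfbi was at 122 CPM (118 to 127) in Mesenchyme-Ifitm1, 135 CPM (124 to 147) in Mesenchyme-proliferative, 84.7 CPM (56.7 to 122) in Mesenchyme-Ptges and 13.3 CPM (11 to 15.9) in Mesenchyme-generic. Mesenchyme-generic thus held 9.23 times less than Mesenchyme-Ifitm1, a class with 892 cells in untreated wildtype and 1 in untreated Tnfr2-/-. Within untreated Mesenchyme-generic the genotypes also differed, with 3.05 CPM (0.832 to 7.82, 4 UMIs) in Tnfr2-/-. This was -1.82 on the log2 scale from wildtype, with no overlap of the intervals, and no share of all genes was counted for that class. Within Mesenchyme-Ptges the levels were 84.7 CPM (29 UMIs), 28.7 CPM, 12.0 CPM (10 UMIs) and 18.7 CPM, with TNF differences of -1.53 in wildtype, a call, and 0.60 in Tnfr2-/-, which was not. The genotype difference there was -2.72 without TNF, a call, and -0.59 with it.

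The epithelia gave 4, 11, 3 and 2 Tgfbi UMIs. Of the 11 in TNF-treated wildtype, 9 lay in Secretory-Reg4-Ang4, a class of 246 cells of that library alone with a median of 1957.5 UMIs per cell. There Tgfbi was at 17.7 CPM (8.08 to 33.5), 61.4% of the mesenchymal level of that library, where the fibroblast markers stood at between 4.28% and 42.1% of theirs.

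**Figure D4:**
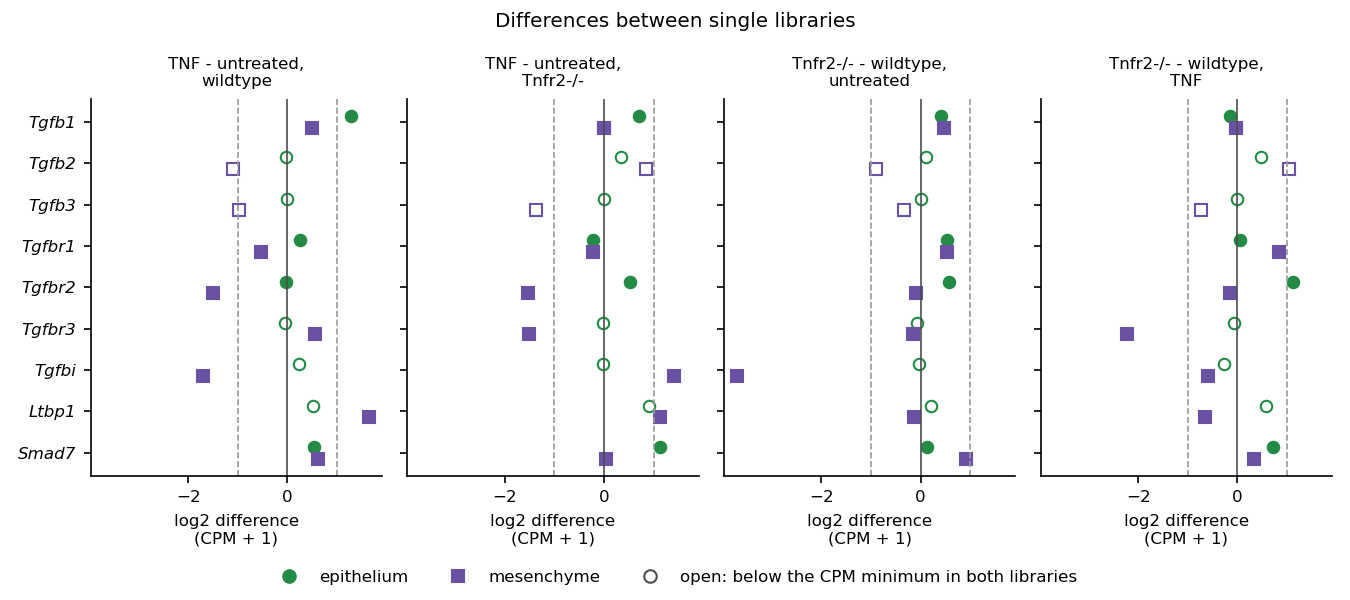
Differences in log2(CPM + 1) between single libraries (horizontal axis) for the 9 genes (vertical axis), in epithelium (green circles) and mesenchyme (purple squares), for TNF minus untreated in each genotype and Tnfr2-/- minus wildtype in each treatment, with open symbols for genes below 10 CPM on both sides and dashed lines at a 2-fold difference. With TNF and the mesenchymal classes pooled, Tgfbr2 lies at -1.49 and -1.53 and Ltbp1 at 1.64 and 1.13, while Tgfbi lies at -1.70 in wildtype and 1.40 in Tnfr2-/-.

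Counted over all 9 genes, 4 reached 10 CPM in epithelium and 7 in mesenchyme. Of these, 1, 1, 0 and 1 were called in epithelium and 3, 4, 1 and 1 in mesenchyme, for TNF in wildtype, TNF in Tnfr2-/-, genotype without TNF and genotype with TNF. The epithelial calls were all higher, and those in mesenchyme were 1 higher and 2 lower, 2 and 2, 0 and 1, and 0 and 1. Of all genes in epithelium, 2.69% were called higher and 1.02% lower, 5.05% and 8.46%, 2.78% and 3.48%, and 4.75% and 6.96%. In mesenchyme these shares were 5.86% and 7.45%, 6.18% and 7.24%, 3.73% and 4.65%, and 6.48% and 8.9%. The median difference of the members that reached 10 CPM was 0.49 and -0.00 for TNF in mesenchyme, where all genes tested had -0.00 and -0.12. For TNF in epithelium it was 0.40 and 0.62, where all genes had 0.05 and -0.14. The TNF and genotype comparisons share libraries and are no separate evidence of each other.

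In addition, 92 other genes of the pathway were read in 5 lists. In mesenchyme with TNF, 5.86% of all genes were called higher and 7.45% lower in wildtype, 6.18% and 7.24% in Tnfr2-/-, and 2.72% and 3.31% in both genotypes, and the counts below are read against these shares. In mesenchyme with TNF, 20 genes that hold TGF-beta latent or activate it had 4 rises and 5 falls among 18 measured in wildtype, and 4 and 4 among 17 in Tnfr2-/-. In both genotypes 3 rose, all known to release or activate the ligand: the protease Mmp9 (7.73 to 68.5 CPM in wildtype and 21.6 to 84.0 CPM in Tnfr2-/-), the plasminogen activator Plau (12.3 to 48.9 CPM and 12.4 to 35.8 CPM) and the integrin chain Itgb3 (5.26 to 38.8 CPM and 15.6 to 40.4 CPM). A pair fell, the integrin chain Itgb8, which activates latent TGF-beta (67.2 to 19.9 CPM and 102 to 15.9 CPM), and Emilin1, a matrix protein that restrains its processing (157 to 75.9 CPM and 113 to 51.8 CPM). Among 13 co-receptors, Smads and coactivators measured in both, 1 was called, Nrp1, a co-receptor that binds the ligand, which fell from 89.3 to 20.7 CPM and from 102 to 10.5 CPM. Among the rest of that list, the signal carriers Smad2 and Smad4 differed by -0.11 and 0.06 on the log2 scale in wildtype, and by -0.25 and 0.06 in Tnfr2-/-. Neither was called, so both are named outside the rule for called genes. The value of Smad3 is not given here.

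Pathway inhibitors and targets were mixed. Of 12 inhibitors measured in both genotypes, Tgif1, a corepressor of Smad2, rose with TNF in mesenchyme (24.5 to 78.8 CPM and 31.2 to 68.7 CPM). Pmepa1, itself induced by TGF-beta, fell (1439 to 383 CPM and 951 to 229 CPM), as did Bambi, a decoy receptor (84.0 to 3.94 CPM and 22.5 to 8.59 CPM). Of 18 matrix and contractile targets, 6 fell in both genotypes and 1 rose, and in single genotypes 7 of 20 fell and 4 rose in wildtype and 8 of 18 and 3 in Tnfr2-/-. The collagens Col1a1 (2792 to 510 CPM and 1986 to 406 CPM) and Col3a1 (4087 to 956 CPM and 2410 to 442 CPM) and the matrix protein Postn (1106 to 318 CPM and 1179 to 277 CPM) led the falls, and the cytokine Il11 was the one that rose (65.5 to 350 CPM and 11.5 to 260 CPM). The list median was -0.57 in wildtype and -0.42 in Tnfr2-/-. Of 19 growth and transcription targets, the chromatin protein Hmga2 rose (65.0 to 917 CPM and 173 to 665 CPM), and the inhibitors of differentiation Id3 (398 to 88.4 CPM and 176 to 14.9 CPM) and Id1 (46.0 to 10.3 CPM and 43.2 to 13.0 CPM), which bone morphogenetic proteins also induce, fell.

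The values above pool the mesenchymal classes, whose makeup moved with TNF, so the lists were also counted within Mesenchyme-Ptges, a reading added after the data were seen. There 2.04% of all genes were called higher and 1.46% lower with TNF in both genotypes. Of the matrix and contractile targets, 4 of 19 were called lower in both, against 6 of 18 pooled. They were Col1a1 (2639 to 507 CPM in wildtype and 1638 to 406 CPM in Tnfr2-/-), Col3a1 (5906 to 957 CPM and 1065 to 442 CPM), Postn (1486 to 317 CPM and 1152 to 277 CPM) and Col1a2, a further collagen chain. Il11 was called higher (73.0 to 352 CPM in wildtype, and from 4 UMIs to 260 CPM in Tnfr2-/-), as was Ctgf (2.92 to 30.3 CPM, from 1 UMI, and 6.00 to 23.7 CPM, from 5 UMIs). Among the other lists, the calls of Mmp9 (17.5 to 68.7 CPM and 15.6 to 84.0 CPM), Itgb3, Itgb8, Pmepa1 (844 to 383 CPM and 602 to 229 CPM) and Hmga2 (409 to 922 CPM and 183 to 665 CPM) were present in both genotypes within the class. Those of Plau, Emilin1, Nrp1, Tgif1, Bambi, Id3 and Id1 were missing in at least 1 genotype. Plau differed by 0.73 in wildtype, Emilin1 by -0.45, Nrp1 by -0.90, Tgif1 by 0.96 and Id1 by -0.77 in Tnfr2-/-, Id3 by -0.36 in wildtype, and Bambi by -0.99 in wildtype and -0.68 in Tnfr2-/-. The ubiquitin ligase Nedd4l, of the inhibitor list, was called higher within the class in both, in wildtype from 1 UMI.

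**Figure D5:**
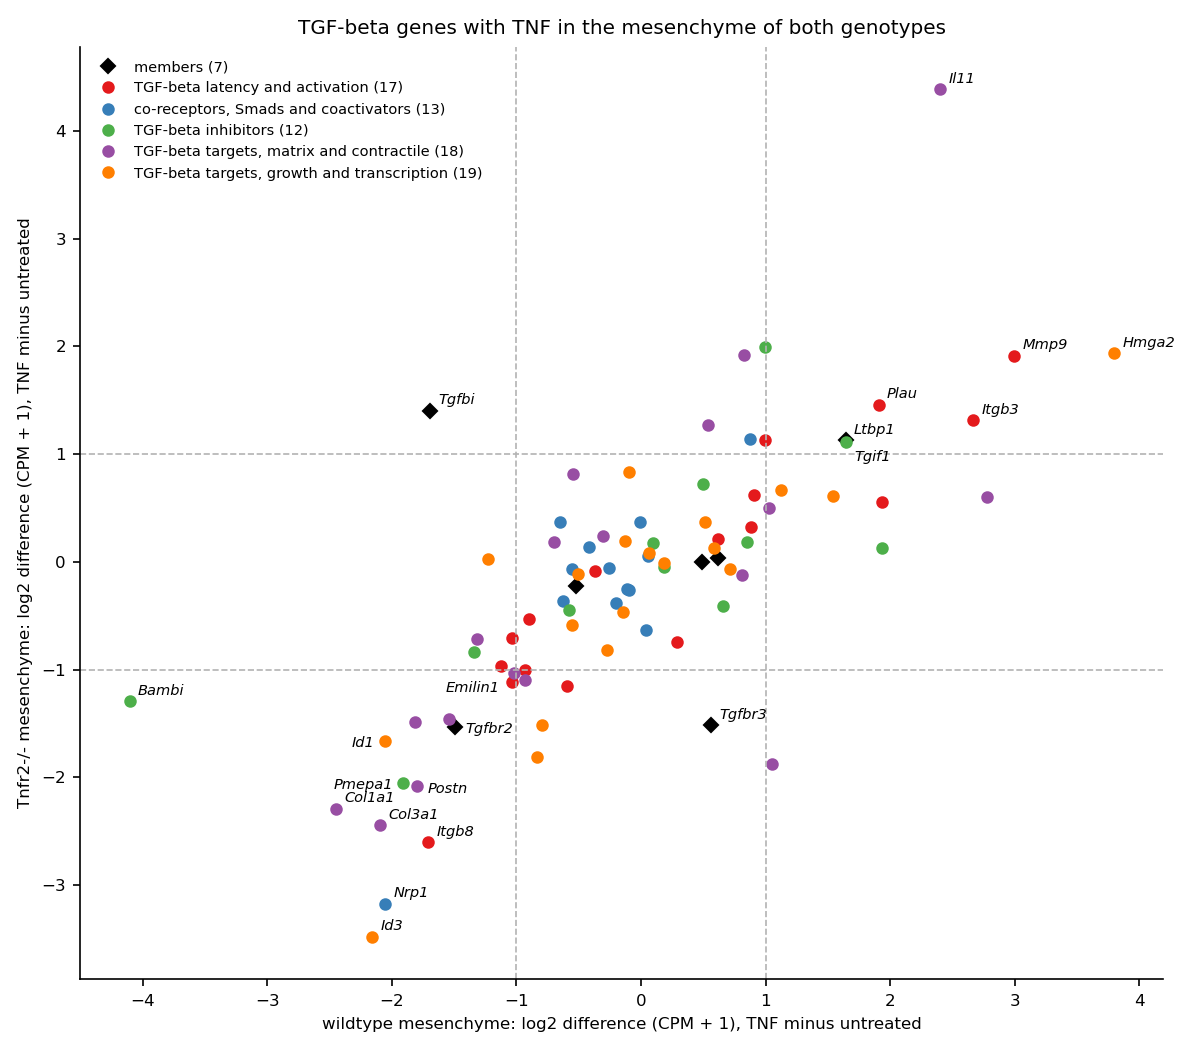
Difference with TNF in log2(CPM + 1) in wildtype mesenchyme (horizontal axis) and Tnfr2-/- mesenchyme (vertical axis) for the 7 members (black diamonds) and the genes of 5 pathway lists (colors, number in parentheses) that reached 10 CPM in both genotypes, with dashed lines at a 2-fold difference and the genes described in the text labelled. Mmp9, Plau, Itgb3, Il11, Hmga2, Tgif1 and Ltbp1 lie in the upper right corner, Tgfbr2 lies with Col1a1, Col3a1, Postn and Pmepa1 in the lower left, and Tgfbi lies at the upper left. All values pool the mesenchymal classes.

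In epithelium with TNF, no pathway gene was called lower in both genotypes and 4 were called higher, where 0.0654% and 0.98% of all genes were. They were Itgb6, the epithelial integrin chain that activates latent TGF-beta (23.7 to 61.8 CPM in wildtype and 41.1 to 91.0 CPM in Tnfr2-/-), the matrix protein Fn1 (3.60 to 73.2 CPM and 60.0 to 172 CPM) and the growth factors Pdgfb (4.43 to 13.1 CPM and 10.7 to 26.9 CPM) and Vegfa (41.7 to 87.9 CPM and 68.7 to 197 CPM). By list these were 1 of 8 latency genes, 1 of 5 matrix targets and 2 of 13 growth targets, with none of 9 co-receptors and Smads or of 9 inhibitors. These values pool the epithelial classes, and the lists were not counted within single epithelial classes. Progenitor.2 had 62 cells without and 273 with TNF in wildtype, and 233 and 716 in Tnfr2-/-. The part of class makeup in these 4 calls was not tested. Itgb6 was also the latency gene that was called lower in mesenchyme than in epithelium in all 4 libraries, by 3.83 to 5.63 on the log2 scale. In contrast, 9 of the 15 measured there were called higher in mesenchyme. Among them were the protease Mmp2, the microfibril protein Fbn1 and Emilin1, with smallest log2 differences over the libraries of 7.76, 6.51 and 5.49. Over all genes tested, 14.5% were called higher in mesenchyme in all 4 libraries and 10.4% lower. In the other lists, 4 of 13 co-receptors and Smads were called higher in all 4 (led by Acvrl1 and Eng with 5.43 and 4.64, then Cd109). So were 3 of 11 inhibitors (Dcn, then Bgn and Spsb1 with 8.30 and 1.95). The same held for 15 of 18 matrix targets (Col1a2, Sparc and Col3a1 with 8.80, 8.39 and 7.92). Of the growth targets, 8 of 19 were called higher (Zeb2, Twist1 and Zeb1 with 6.86, 5.56 and 5.36). Dcn and the collagens are also among the fibroblast markers used above. Besides Itgb6, only the growth factor Pdgfa was called lower in mesenchyme in all 4, by 1.43 or more.

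Between genotypes, 3 pathway genes were called in epithelium in both treatments, where 1.39% of all genes were higher and 1.48% lower. Fn1 was higher in Tnfr2-/- (60.0 against 3.60 CPM without TNF and 172 against 73.2 CPM with it), as was the stress protein Gadd45b (60.4 against 29.3 CPM and 148 against 46.4 CPM), and Bambi was lower (11.0 against 24.6 CPM and 8.98 against 20.7 CPM). The epithelia also differed in makeup. Tnfr2-/- had 233 Progenitor.2 cells against 62 in wildtype without TNF, and 716 against 273 with it. Absorptive cells numbered 11 against 319 without TNF. The part of class makeup in these epithelial differences was not tested. In mesenchyme 4 of 20 matrix and contractile targets were lower in both treatments and none higher, against 1.76% and 1.56% of all genes, with list medians of -0.75 and -0.38. Tagln, a contractile protein of smooth muscle and myofibroblasts, was at 9.19 against 61.4 CPM and 0.419 against 40.2 CPM, and alpha smooth muscle actin (Acta2) at 29.9 against 88.1 CPM and 13.4 against 45.8 CPM. The inhibitor of metalloproteinases Timp3 was at 0.919 CPM (2 UMIs) against 18.1 CPM and at 6.50 against 16.0 CPM. The activin trap Fst (6.89 against 20.2 CPM and 1.68 against 22.4 CPM) and the transcription factors Snai2 (33.5 against 73.8 CPM and 11.1 against 42.2 CPM) and Id3 (176 against 398 CPM and 14.9 against 88.4 CPM) were also lower. The ubiquitin ligase Nedd4l (19.8 against 8.82 CPM and 81.5 against 18.6 CPM) and the repressor Bhlhe40 (114 against 56.1 CPM and 121 against 58.7 CPM) were higher. The makeup of the untreated mesenchymes also differed, with 892 against 1 Mesenchyme-Ifitm1 and 111 against 1 Mesenchyme-proliferative cells in wildtype and Tnfr2-/-. Within Mesenchyme-Ptges, 5 of 19 matrix and contractile targets were called lower in both treatments and none higher, where 2.24% of all genes were lower and 2.78% higher. Tagln and Acta2 were not among these 5: without TNF they were higher in Tnfr2-/- than in wildtype there, at 24.0 CPM (20 UMIs) against 2.92 CPM (1 UMI) and at 74.5 CPM (62 UMIs) against 5.84 CPM (2 UMIs), the reverse of the pooled mesenchyme. Timp3, Fst, Id3, Nedd4l and Bhlhe40 were called there in the pooled direction in both treatments, without TNF on 2 to 7 UMIs for Timp3, on 5 in each library for Fst and on 1 in wildtype for Nedd4l, while Snai2 missed the call without TNF (-0.78). Xist moved with genotype in both compartments and the Y-linked genes were highest in Tnfr2-/- mesenchyme, and the part of sex in these differences was not tested.

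Across 27 sums of a class in a library, each of at least 20 cells, the gene among 10113 whose log2(CPM + 1) ran most like that of each member was found as a description, with the sums sharing libraries and depth. For Tgfbr2 these were Cavin1, Zfp36l1 and Pmepa1 (Pearson r of 0.944, 0.928 and 0.921). For Tgfbr3 they were Dnm3os, Has2 and Csgalnact1 (0.986, 0.984 and 0.983), and for Tgfbi they were Trpa1, Arhgap28 and Akap12 (0.988, 0.978 and 0.974). Ltbp1 ran most like Rab7b, Ppp1r18 and Slc12a4 (0.938, 0.937 and 0.937) and Tgfb2 most like Gria3, Bnc2 and Tshz3 (0.960, 0.958 and 0.957). For the genes read in both compartments the nearest were Fndc3b, H2-Q7 and Tapbp for Tgfb1 (0.910, 0.910 and 0.909), 9530068E07Rik and Pcnx for Tgfbr1 (0.968 and 0.955) and Itgav, Cflar and Ahnak2 for Smad7 (0.963, 0.934 and 0.930). Itgav is the alpha chain shared by the integrins that activate latent TGF-beta, but it came from a search over all 10113 genes and is not read as support. The sums span both compartments, so restriction to mesenchyme alone can give a high r. For Tgfb3, which stayed below 10 CPM, none was sought.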

How the data were processed

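The authors deposited whole-number counts of UMIs for 30360 genes and 6155 cells of 4 libraries of 3' single-cell RNA. Per the paper, they counted reads with Cell Ranger (5.0.0 on mm10 per the submitters' processing notes), removed cells under 100 UMIs and doublets of epithelial with mesenchymal cells, and clustered in monocle3. No source used here gave the annotation release. A size factor (score) that the authors deposited for every cell was left aside. The deposited classes were used as given, and 35 cells had none. Libraries were matched to groups through the genotype and treatment of the deposited cell table.

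UMIs were summed per class and library, divided by their total and compared as log2(CPM + 1) with exact Poisson intervals, and shares of cells carry exact Clopper-Pearson intervals, both at 95%. Shares come from 1 seeded random thinning to 5000 UMIs per cell. A sum of 0 is read against a floor of 3 counts. With 1 library per group no test was made. The 9 genes, the 5 pathway lists and the call rule were chosen with earlier results of these data known. From each list, up to 3 called genes with the largest smaller difference were named per comparison. A nearest gene of Tgfbr1 is not reported here. Scrublet marked 47 cells as doublets (0.764%), of which 25 had no class, and 3 barcodes occurred in 2 libraries. Alternatives included edgeR 4.0.16 TMM factors (R 4.3.3), median-of-ratios factors, other pseudocounts, minimums and cell or class selections (for the pathway lists, Mesenchyme-Ptges alone was added after the data were seen), and the scripts were tested on simulated data. Python 3.11.15, numpy 2.4.6, scipy 1.17.1, pandas 2.3.3, scanpy 1.11.5 and matplotlib 3.10.9 were used. Promoters came from RefSeq (GRCm38.p6), where 6 of the 9 members had 8 windows.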

Additional observations from a re-analysis of the deposited data

Results flagged for a closer look

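Several members moved in opposite directions in 2 groups under the same contrast, with counting intervals that did not overlap within each pair. None of these differences between groups was tested, since each group was 1 library. With TNF in mesenchyme, Tgfbi was -1.70 on the log2 scale in wildtype and 1.40 in Tnfr2-/-, where its UMIs numbered 14 without and 89 with TNF, and Tgfbr3 was 0.56 in wildtype and -1.51 in Tnfr2-/-. Within Mesenchyme-Ptges both Tgfbr3 differences were below 0 (-0.61 with overlapping intervals and -1.39), so the opposite directions were seen only with the classes pooled, and those of Tgfbi were -1.53 and 0.60, the latter with overlapping intervals. Tgfbr1 with TNF was 0.26 in wildtype epithelium, -0.22 in Tnfr2-/- epithelium and -0.53 in wildtype mesenchyme, none of them a call. In Tnfr2-/-, Tgfbr2 with TNF was 0.52 in epithelium and -1.53 in mesenchyme.

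The 35 cells without a deposited class, 31 of untreated wildtype and 4 of untreated Tnfr2-/-, entered no comparison and also carried these genes. They held 304 UMIs of Tgfbr2, 93 of Smad7, 69 of Tgfb1, 57 of Tgfbi, 52 of Tgfbr1, 17 of Tgfbr3 and 14 of Ltbp1, each above the 3 counts taken as a floor. Scrublet marked 25 of the 35 as doublets (71.4%).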

How the results depend on the processing

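No paired analysis was possible because each group was 1 library and the labels carry no replicate numbers, and no library could be left out for the same reason. Of 682 alternative values for 71 member values, 519 moved by less than their counting error, 161 moved by more, and 2 turned the sign of a called value. Of the 35 called values, 27 stayed called and 34 kept their direction under every alternative. The 2 that turned a call were Ltbp1 with TNF in wildtype mesenchyme, from 1.64 to -0.041 with classes weighted equally and to -0.041 with Mesenchyme-Ptges alone. Of the 36 values without a call, 13 changed sign under an alternative (19 alternative values), 5 of them with at least 0.1 on both sides. These 5 were Tgfbr3 with TNF in wildtype mesenchyme (0.56 to -0.61 under the same 2 settings), Tgfbr1 between untreated mesenchymes (0.54 to -0.11, Mesenchyme-Ptges alone) and with TNF in Tnfr2-/- mesenchyme (-0.23 to 0.34), and, with equal class weights, Tgfbr2 with TNF in Tnfr2-/- epithelium (0.52 to -0.15) and Smad7 between TNF-treated epithelia (0.71 to -0.11). Of the counts of members called, TNF in both genotypes in mesenchyme went from 2 (Ltbp1, Tgfbr2) to 1 (Tgfbr2) with a pseudocount of 10 CPM and to 0 with equal weights or Mesenchyme-Ptges alone. Genotype in both treatments in mesenchyme went from 0 to 1 (Tgfbr3) under those same 2 class settings. TNF in both genotypes in epithelium went from 0 to 1 (Smad7, 1.01 and 1.14) with the 3 progenitor classes only. The 4 members called higher in mesenchyme in all libraries, and the 0 between genotypes in epithelium, moved by no more than 1.5 times, with Tgfbi in place of Ltbp1 among the 4 under Mesenchyme-Ptges alone.

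Besides Ltbp1 in wildtype mesenchyme, calls were lost for Tgfb1 with TNF in wildtype epithelium (lowest 0.68), Tgfbr2 between TNF-treated epithelia (0.68) and Smad7 with TNF in Tnfr2-/- epithelium (0.32), each with a pseudocount of 10 CPM and with equal class weights. In Tnfr2-/- mesenchyme with TNF they were lost for Tgfbr2 (-0.90, equal weights or Mesenchyme-Ptges alone), Tgfbi (down to 0.60, under those 2, a mean over cells and the 10 CPM pseudocount) and Ltbp1 (0.89, pseudocount of 10 CPM). Ltbp1 between mesenchyme and epithelium of untreated Tnfr2-/- fell under the minimum with Mesenchyme-Ptges alone (1.48). Without thinning, 58 of 72 shares of cells moved outside their interval and 7 members in place of 6 had higher shares in mesenchyme, Tgfbi being added. Other scalings moved the median of all genes by over 0.1, for example from -0.14 to 0.02 for TNF in Tnfr2-/- epithelium.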

Other observations

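Among the pathway targets outside the rule for named genes, Ctgf was picked after its values were seen. Ctgf, a matricellular target shared with YAP signaling, was at 39.3, 41.9, 59.8 and 160 CPM in epithelium and at 16.6, 30.1, 5.51 and 23.7 CPM in mesenchyme, so that it was higher in epithelium in every library. In Tnfr2-/- epithelium Ctgf rose with TNF by 1.40 on the log2 scale, against 0.09 in wildtype. Progenitor.2 had 716 of the 858 TNF-treated cells of that epithelium, and the part of class makeup in these values was not tested.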
